A study of Mus musculus with 11 samples.

Results

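The promoters described here are those of 10 Bcl2 family genes, chosen by symbol from a table of 21881 promoter windows, and all 10 were found in it. They fall into 3 classes by the role of their proteins: 3 anti-apoptotic genes (Bcl2, Bcl2l1 and Mcl1), 2 effector genes (Bax and Bak1) and 5 BH3-only genes (Bid, Bad, Bcl2l11, Bbc3 and Pmaip1). The measurement was chromatin immunoprecipitation followed by sequencing (ChIP-seq) with an antibody to the HA tag, directed at ST18, a DNA-binding zinc finger protein related to MYT1, in mouse cells grown in vitro. The groups used here were the ST18 ChIP, with 2 labelled samples, and input genomic DNA, with 1 labelled sample. Both came from material that the labels call TN and give as a brain cell type, with no genotype, treatment or time of their own and no statement of how the HA-tagged protein was supplied. The labels carry the same HA ChIP molecule tag for the input sample, whose title and description name it input. The series also holds 4 RNA samples with ST18 knocked down and 4 controls, from electroporated embryonic mouse brains, which were not analysed here.

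The Bcl2 family sets whether the outer mitochondrial membrane stays sealed, the main decision point of the intrinsic pathway of apoptosis. Anti-apoptotic members hold the effectors Bax and Bak1 in check. Effectors form pores that release cytochrome c, and BH3-only proteins, which share only the short BH3 helix with the rest of the family, report stress by binding the anti-apoptotic members or by activating the effectors directly. During cortical development this pathway removes surplus progenitors and neurons, and ST18 has been linked to apoptosis in other cells, which is the reason for looking at these promoters.

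The upstream sequences of 4 members are shown because they hold the highest ratio of ST18 to input reads in the family (Bcl2l11), the lowest (Bbc3), and the effector pair (Bax and Bak1), whose ratios lay on either side of the average. Each is the 250 bases before the most upstream annotated start, from RefSeq in build GRCm38.p6, printed 5′ to 3′ along the gene's own strand. The deposited windows were made on another build (mm9, the build named in the submitters' processing notes) and their position around the start is not given in the sources used here, so these bases need not coincide with the counted window. Capitals mark AAGTT, the core of the motif bound by MYT1 family zinc fingers, or its reverse complement AACTT. Bcl2l11 lies at chr2:128125788-128126037 on the plus strand, Bbc3 at chr7:16309333-16309582 on the plus strand, Bax at chr7:45466899-45467148 on the minus strand and Bak1 at chr17:27028628-27028877 on the minus strand.
Bcl2l11: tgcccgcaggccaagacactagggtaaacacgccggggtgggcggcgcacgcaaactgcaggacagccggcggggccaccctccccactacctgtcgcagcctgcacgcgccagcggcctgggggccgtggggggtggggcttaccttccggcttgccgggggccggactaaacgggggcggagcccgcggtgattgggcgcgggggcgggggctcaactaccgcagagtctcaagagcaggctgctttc
Bbc3: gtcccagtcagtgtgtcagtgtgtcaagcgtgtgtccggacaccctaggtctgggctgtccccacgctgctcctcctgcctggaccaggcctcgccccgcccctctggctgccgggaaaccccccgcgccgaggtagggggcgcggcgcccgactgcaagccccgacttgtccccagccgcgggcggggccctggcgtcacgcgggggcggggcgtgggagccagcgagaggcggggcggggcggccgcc
Bax: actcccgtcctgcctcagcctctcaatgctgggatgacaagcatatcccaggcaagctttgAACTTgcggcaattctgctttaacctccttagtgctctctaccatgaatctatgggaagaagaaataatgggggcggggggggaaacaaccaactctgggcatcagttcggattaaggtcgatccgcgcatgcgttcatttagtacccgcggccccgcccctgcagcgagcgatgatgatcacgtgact
Bak1: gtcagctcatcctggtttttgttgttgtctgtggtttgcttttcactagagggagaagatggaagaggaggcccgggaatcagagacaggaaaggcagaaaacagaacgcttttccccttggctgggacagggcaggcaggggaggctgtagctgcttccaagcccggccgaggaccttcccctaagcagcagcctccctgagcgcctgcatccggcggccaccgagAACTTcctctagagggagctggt

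RefSeq promoters were matched for 9 of the 10 members, all but Pmaip1. AAGTT was found on either strand in 4 of these 9 upstream stretches, in Bcl2l1, Bax, Bak1 and Bad, with 1 match each, against 35.7% of the 27025 reference promoters searched over the same length. The match began 209 bases before the start in Bcl2l1, 189 in Bax, 28 in Bad and 23 in Bak1, counted to its first base on the gene's strand. The longer form AAAGTT, which contains AAGTT, was found in none of the 9 and in 12.6% of all reference promoters. Neither the promoter with the highest ratio, Bcl2l11, nor that with the lowest, Bbc3, held a match in these 250 bases. Bcl2l11, Bad, Bcl2l1 and Bbc3 have more than 1 annotated start, with 2, 2, 3 and 3 entries, while the deposited table gives 1 window per gene. The GC content of the 9 stretches ran from 47.6% in Bcl2l1 to 76.4% in Bbc3, with a median of 63.6%, against a median of 52.0% (interquartile range 44.8 to 60.8) over all reference promoters. Bcl2 stood at 74.8% and Bcl2l11 at 72.0%. GC content was not set against enrichment over the whole table: a reference promoter was matched for 67.1% of its genes by symbol and for 75.8% with older symbols, under the minimum of 80% set for such a check, which is therefore void. The part of base composition in these values was not tested.

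The values are counts of reads per window of 1000 bp, with 1 input column and 1 ST18 column, which may hold either or both of the 2 ChIP samples. In all there were 438960 ST18 reads and 160443 input reads, a ratio of 2.74 over all promoters. A window held a median of 20 ST18 reads and 7 input reads. There are no replicates, so every interval covers counting error only. That of a promoter or class is an exact (Clopper-Pearson) 95% binomial interval, and that of a ratio between promoters or classes is the exact conditional 95% interval of the odds ratio. A fold below is the ratio of ST18 to input reads at a promoter divided by 2.74, and log2 enrichment is the log2 of (0.406 times the ST18 reads plus 16) over (the input reads plus 16). The 10 members held between 16 reads (Bid) and 42 reads (Bax) in both columns together, with a median of 31, against a median of 28 over all windows.

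Across the family, ST18 reads were spread close to the average of all promoters. Relative to input they were highest at Bcl2l11 (Bim), on 2 input reads, and lowest at Bbc3 (Puma) and Bax. The 10 promoters together held 233 ST18 reads and 72 input reads, a fold of 1.18 (0.904 to 1.56). Bcl2l11 was the only member whose interval excluded 1, where 2.37% of all windows had an interval above 1 and 3.24% one below 1. Among windows with as many reads as the members, 16 to 42, these shares were 2.2% and 3.48%. No member was called by the exact test, a two-sided binomial test that sets a window's ST18 reads against the ST18 share of the whole table, adjusted by the Benjamini-Hochberg method over every window. That test called 0.0366% of all windows higher and 0.00914% lower, and at an unadjusted p under 0.05 it held 1 member, Bcl2l11, against 2.49% of windows higher and 4.39% lower. It compares the reads of the 2 columns and not conditions. In 7 of the 10 members the ratio lay above that of all promoters, as it did in 49.2% of windows. Likewise 7 members lay above the median log2 enrichment of the table, against 49.6% of windows. That median was 0.19 over the members and 0.04 (interquartile range −0.10 to 0.19) over all windows.

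**Figure D1:**
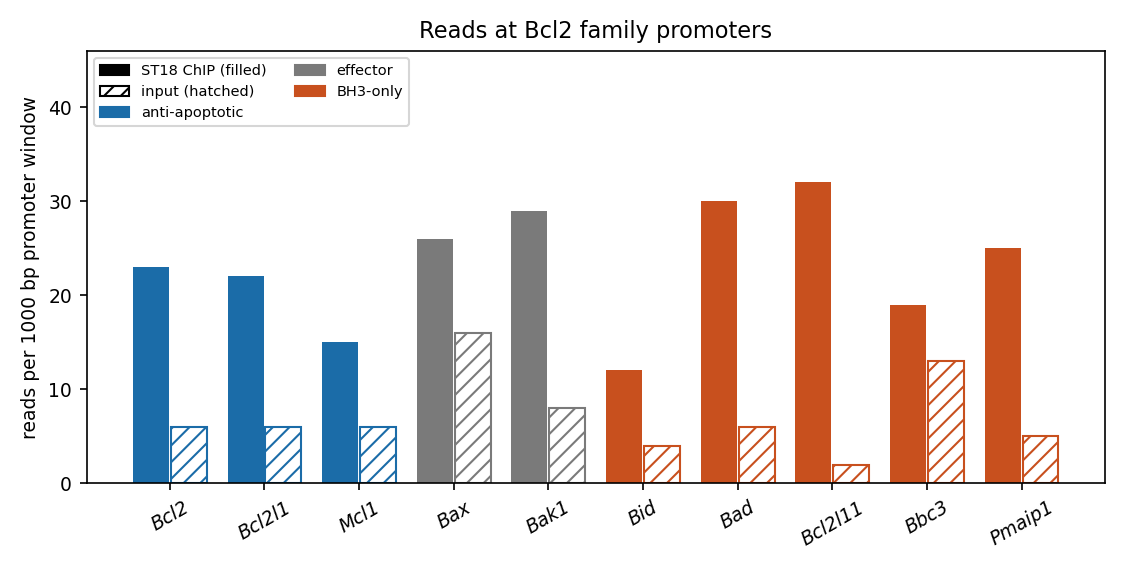
Reads per 1000 bp promoter window (vertical axis) at the 10 members, with ST18 ChIP reads as filled bars and input reads as hatched bars beside them, coloured by class, 1 column each and no replicates. Bcl2l11 stands at 32 ST18 reads against 2 input reads, while Bax and Bbc3 carry the most input reads, 16 and 13.

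Among the anti-apoptotic genes, no promoter stood apart from the average. Bcl2, the founding member, held 23 ST18 reads against 6 input reads, a fold of 1.40 (0.555 to 4.21) and a log2 enrichment of 0.20. Bcl2l1, which encodes Bcl-xL, the main survival factor of young neurons, held 22 ST18 reads against 6 input reads, a fold of 1.34 (0.527 to 4.04). Mcl1, a short-lived protein that neural progenitors need for survival, held 15 ST18 reads against 6 input reads, a fold of 0.914 (0.335 to 2.87). The 3 promoters held the same number of input reads, so their order, Bcl2 over Bcl2l1 over Mcl1, follows the ST18 reads alone. The ratio at Bcl2 was 1.53 times that at Mcl1, with an exact interval of 0.336 to 6.92, so even the ends of this order did not differ beyond counting error. Summed, the class held 60 ST18 reads against 18 input reads, a fold of 1.22 (0.710 to 2.19).

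The effectors lay on either side of the average. Bak1 held 29 ST18 reads against 8 input reads, a fold of 1.32 (0.591 to 3.35) and a log2 enrichment of 0.21. Bax, the effector that neurons mainly depend on for developmental death, held 26 ST18 reads against 16 input reads, a fold of 0.594 (0.307 to 1.19) and a log2 enrichment of −0.27. Both had more ST18 reads than the median window, and the gap between them lay in the input reads: only 0.891% of windows held more input reads than Bax, while 35.6% held more than Bak1. The ratio at Bak1 was 2.23 times that at Bax, and its interval (0.744 to 7.02) included 1. The class held 55 ST18 reads against 24 input reads, a fold of 0.838 (0.510 to 1.41).

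The BH3-only genes held both ends of the family. Bcl2l11 encodes Bim, a direct activator of Bax and Bak1 that is induced when neurons lose trophic support. Its promoter held 32 ST18 reads against 2 input reads, a fold of 5.85 (1.49 to 50.4) and a log2 enrichment of 0.69. This was rank 85 of 21881 windows from the highest, so 0.388% of windows lay at or above it. Its unadjusted exact binomial p was 0.00328 and its adjusted p over all windows was 0.394, so the exact test did not call it. At the ratio of all promoters its 34 reads would hold 24.9 ST18 and 9.10 input reads. Of all windows, 7.55% held more ST18 reads and 5.86% held fewer input reads. It was also the only member past a log2 enrichment of 0.58, about 1.49-fold on that scale, which 1.15% of all windows reached. None passed −0.58, which 0.219% of windows did, and none reached 1, which 0.0548% did.

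Bbc3 encodes Puma, a BH3-only protein that p53 induces and that binds all anti-apoptotic members. It held 19 ST18 reads against 13 input reads, a fold of 0.534 (0.250 to 1.18) and a log2 enrichment of −0.29, the lowest of the family. Its ST18 reads were near the median of 20, and 4.73% of windows held more input reads. Its exact binomial p was 0.107 before adjustment and 0.811 after it. The ratio at Bcl2l11 was 10.9 times that at Bbc3, with an exact interval of 2.06 to 106. This pair was picked as the highest and lowest of the 10, which widens the gap, and the interval does not correct for that choice.

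The other BH3-only promoters lay between these ends. Bad, whose protein is held inactive by survival kinase signalling, held 30 ST18 reads against 6 input reads, a fold of 1.83 (0.748 to 5.37) and a log2 enrichment of 0.36. Pmaip1 encodes Noxa, a p53 target that binds Mcl1, and held 25 ST18 reads against 5 input reads, also a fold of 1.83 (0.687 to 6.11) and a log2 enrichment of 0.32. Bid, which links death receptors to mitochondria once caspase-8 cleaves it, held 12 ST18 reads against 4 input reads, a fold of 1.10 (0.332 to 4.66), on the fewest reads of the family. All 3 intervals included 1. Together the 5 BH3-only promoters held 118 ST18 reads against 30 input reads, a fold of 1.44 (0.956 to 2.22). Without Bcl2l11 the class fold was 1.12, and without Bbc3 it was 2.13.

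**Figure D2:**
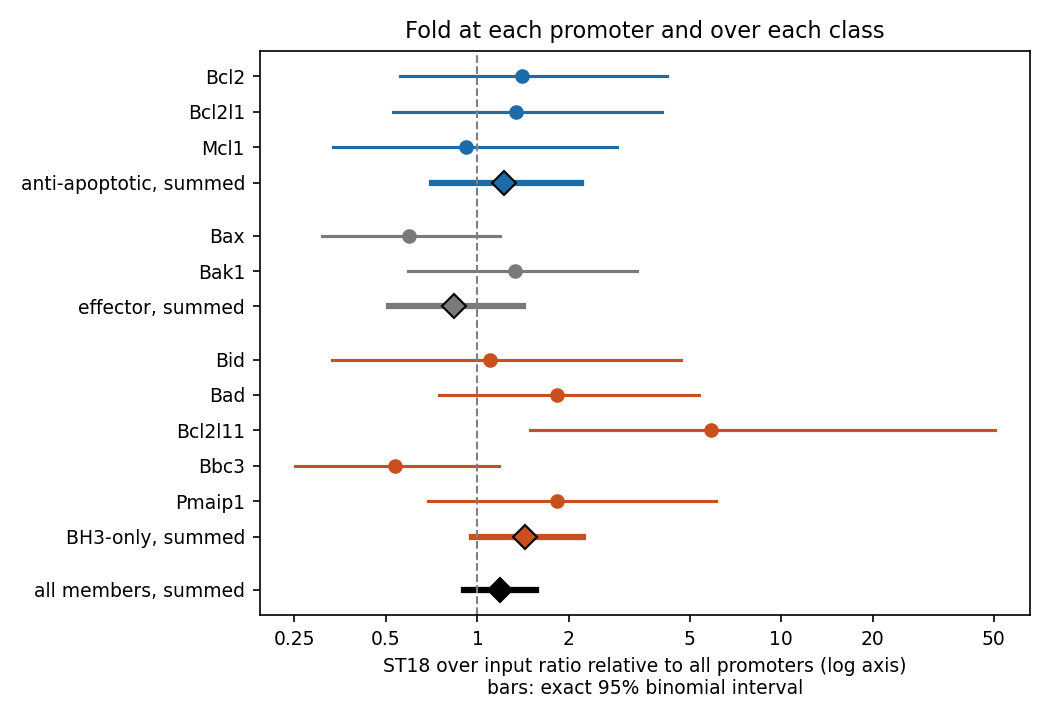
Fold of the ST18 to input ratio over that of all promoters (horizontal, log axis) for each member (circles) and for the summed reads of each class and of all members (diamonds), with exact 95% binomial intervals as bars and the average of all promoters as a dashed line. Bcl2l11 at 5.85 is the only member whose interval lies above 1, and all 4 summed intervals cross 1.

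The classes were compared by their summed ratios. The BH3-only ratio was 1.18 times the anti-apoptotic one (exact interval 0.570 to 2.39). The BH3-only ratio was 1.72 times the effector ratio (0.871 to 3.35), and the effector ratio was 0.688 times the anti-apoptotic one (0.315 to 1.49). All 3 intervals included 1, so no difference between classes was detectable at this depth, and each still held a difference of 2-fold in at least 1 direction. The comparisons turned on single genes. The BH3-only over anti-apoptotic ratio was 0.921 without Bcl2l11 and 1.75 without Bbc3. The BH3-only over effector ratio was 1.09 without Bax, and the effector over anti-apoptotic ratio was also 1.09 without it. Single members of the BH3-only class had folds from 0.534 to 5.85.

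**Figure D3:**
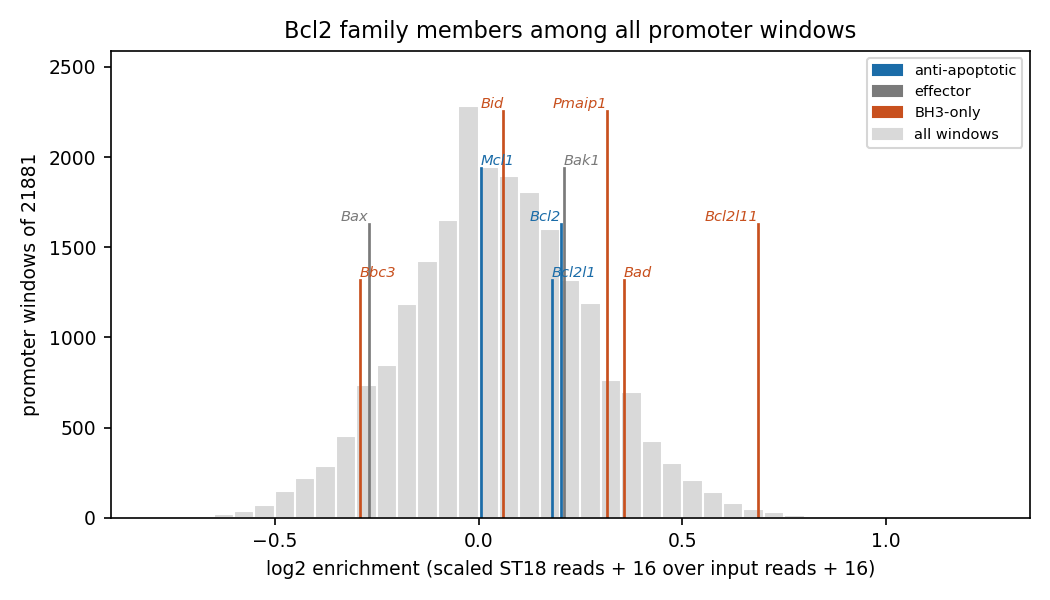
Number of promoter windows (vertical axis) by log2 enrichment of ST18 over input (horizontal axis) for all 21881 windows in grey, with a line for each member coloured by class. Bcl2l11 at 0.69 is in the far right tail, and Bax at −0.27 and Bbc3 at −0.29 are on the left flank.

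How far the members could have been called depends on their reads. A window needed at least 37 reads, none of them input, to be called higher by the exact test at the largest p it called, and 80.6% of all windows held fewer. Bax with 42 reads and Bak1 with 37 were the 2 members that could have passed on the high side. Bcl2l11, with 34 reads, could not have been called higher even with 0 input reads, where its p would have been 4.46e-05 against a largest called p of 2.08e-05. All 10 members held enough reads to have been called lower.

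Some windows may not belong to a member alone. In GRCm38.p6 the start of Gpr137, on the opposite strand, lies 112 bp from a start of Bad, and its window held 30 ST18 reads against 5 input reads, where that of Bad held 30 against 6. The start of Ggnbp1 lies 632 bp from that of Bak1, and the windows held 30 ST18 against 8 input reads for Ggnbp1 and 29 against 8 for Bak1. The windows of each pair may overlap, but as their position around the start is not given, how many reads they share is not known. The reads at Bad and Bak1 may thus be partly those of their neighbours, which was not tested. No other gene of the table that was matched by symbol had an annotated start within 1000 bp of the remaining members that were matched.

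The wider pathway was taken from 9 lists of 65 further apoptosis genes, and all 65 were in the table. Of these, 35 (53.8%) lay above the median log2 enrichment of all windows, and their own median was 0.07. The exact binomial test called none of them over all windows, with adjusted p from 0.458 upwards. It called 0.0366% of all windows higher and 0.00914% lower. Most of the 65 genes held fewer than the 37 reads needed to be called higher, so for them the lack of such a call says little. An interval above 1 was held by 1 gene (1.54% of the 65) and 1 below 1 by 2 genes (3.08%), close to the shares of 2.37% and 3.24% over all windows.

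Of the other anti-apoptotic genes, the highest was Bcl2l10 (19 ST18 against 4 input reads, log2 enrichment 0.25) and the lowest was Bcl2a1c (2 against 1, log2 −0.02). The Bcl2a1 genes are near-identical copies whose counts are uncertain: Bcl2a1a and Bcl2a1b held 0 reads in both columns and so stand at a log2 enrichment of 0.00. Bok, an effector-like relative of Bax, held 18 ST18 against 5 input reads (log2 0.15). The other BH3-only genes were Bik (19 against 3, log2 0.32), Hrk, which is induced in neurons deprived of growth factor (21 against 7, log2 0.09), and Bmf (13 against 8, log2 −0.17). Bnip2 (41 against 10, log2 0.33) and Moap1 (15 against 9, log2 −0.18) were highest and lowest among the more distant relatives and partners of the family.

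Downstream of the mitochondria the largest value was that of Diablo (Smac), which is released with cytochrome c and relieves caspase inhibition. It held 30 ST18 reads against 2 input reads, a fold of 5.48 (1.39 to 47.3) and a log2 enrichment of 0.65, and it was the 1 list gene with an interval above 1 (exact test, adjusted p = 0.458). Its counts were close to those of Bcl2l11. Cycs, which encodes somatic cytochrome c, was lowest with 8 ST18 reads against 10 input reads, a fold of 0.292 (0.100 to 0.823, exact test, adjusted p = 0.489). Of the effector caspases and their targets, Gas2 was highest (24 against 4, log2 0.36) and Dffb, which cuts nuclear DNA, was lowest (22 against 15, log2 −0.31). Of the caspase inhibitors, Birc6 was highest (31 against 6, log2 0.38). Naip1, whose gene also has close copies, was lowest with 3 ST18 reads against 6 input reads, a fold of 0.183 (0.0296 to 0.856, exact test, adjusted p = 0.529).

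The death receptor pathway ran from Ripk1, the kinase recruited to TNF receptors (34 ST18 against 6 input reads, log2 0.44), to Cflar, the inhibitor of caspase-8 (14 against 8, log2 −0.15), with a list median of 0.00. Of the factors that act on BH3-only genes, Trp73, a p53 relative, was highest (28 against 5, log2 0.38). Foxo1, of the class of forkhead factors that drive Bcl2l11 transcription, was lowest (18 against 14, log2 −0.36). The list median was −0.02 over 12 genes. The list medians of the members were 0.18 for the anti-apoptotic class, −0.03 for the effectors and 0.32 for the BH3-only class. The apoptosome, effector caspase and inhibitor lists stood at 0.09, 0.12 and 0.18. For the other genes of the same roles as the members, the medians were 0.03, 0.15 and 0.09. The 0.03 is over 6 genes, of which Bcl2a1a and Bcl2a1b held 0 reads, and the 0.15 is the value of Bok alone. The BH3-only median of the members was thus above that of the 3 BH3-only genes outside the set, a difference that was not tested. The promoter of St18 itself held 21 ST18 against 7 input reads, a fold of 1.10 (0.449 to 3.05). Its relatives Myt1 (29 against 5) and Myt1l (13 against 4) had log2 enrichments of 0.40 and 0.09.

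**Figure D4:**
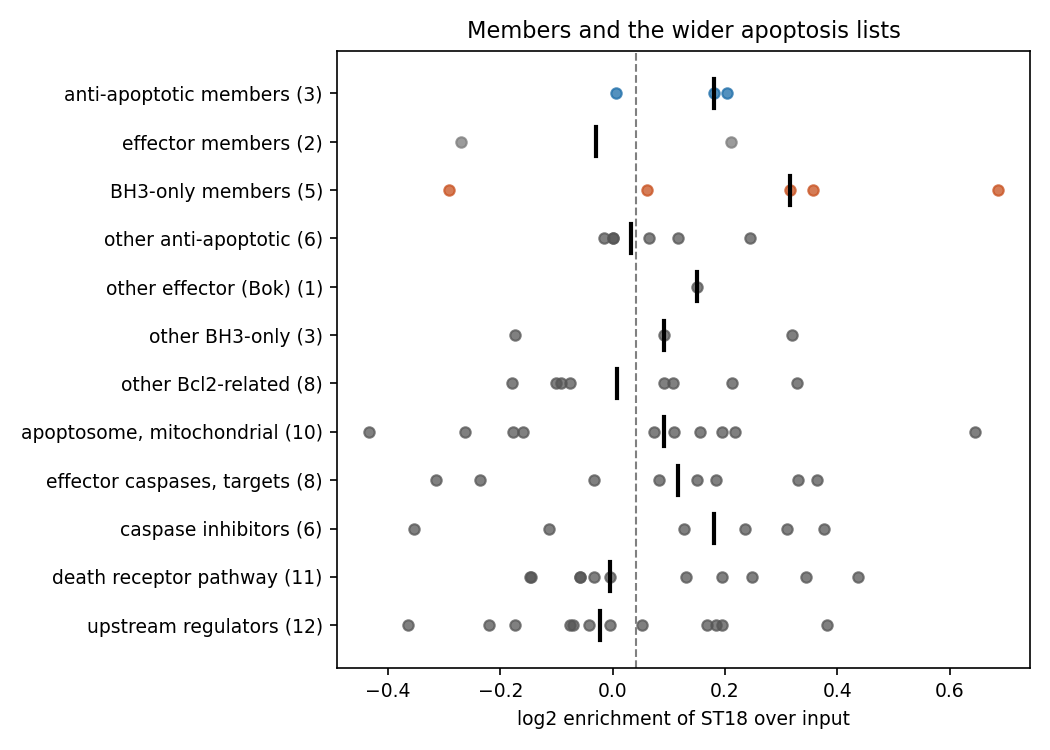
Log2 enrichment of ST18 over input (horizontal axis) for the 10 members by class (coloured points, top rows) and for 65 further apoptosis genes in 9 lists (grey points), with list medians as black bars, gene numbers in brackets and the median of all windows as a dashed line. Bcl2l11 at 0.69 and Diablo at 0.65 are the farthest right, and Cycs at −0.43 is the farthest left.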

How the data were processed

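The promoter table was deposited by the authors with whole-number read counts (1 ST18 and 1 input column) and a log2 enrichment per window. Windows are 1000 bp wide, per the file headers, which name no processing step. Of tools, the submitters' processing notes give Bowtie, MACS2 2.0.10.20120913, HTSeq 0.5.4p1, TopHat2 2.0.8 and edgeR, with build mm9 and no role. For duplicate removal, window position and pooling of the ChIP samples in the ST18 column, the step is not given in the sources used here. Recomputed from the counts, the log2 enrichment matched the deposited one within 1e-06 in all 21881 windows, with a scale factor of 0.406 and a pseudocount of 16. That pseudocount exceeds most input counts and pulls values towards 0. The deposited peak list was not used, since no annotation of its build was at hand.

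Exact binomial tests and intervals were computed with scipy 1.17.1 and checked on simulated data. The simulation drew reads from the test's own binomial model and planted large changes only in windows with more reads than any member. It therefore cannot show how well changes are found at the members' depth, or cover spread beyond counting error. Since reads carry no molecular identifiers, they may repeat molecules, and intervals cover counting error only. Members, lists and tests were chosen with earlier results of these data known. All members were named, and of each wider list the highest and lowest gene by log2 enrichment and any gene called by the exact test, with Hrk, Bcl2a1a and Bcl2a1b added for list size or 0 reads.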

Additional observations from a re-analysis of the deposited data

How the results depend on the processing

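Over 24 results and 95 alternatives, 87 values stayed within the interval or count range of the reported value and 8 moved. The intervals are wide and most members could not have been called higher, so this tally does not measure stability. A change of direction was not scored, and some values crossed 1 while staying within their interval. Without Bax the effector fold went from 0.838 to 1.32, and the effector over anti-apoptotic ratio from 0.688 to 1.09. Without Bcl2l11 the BH3-only over anti-apoptotic ratio went from 1.18 to 0.921. With a pseudocount of 1, 3 members lay at a log2 enrichment of at least 0.58 (Pmaip1, Bad and Bcl2l11) and 1 at −0.58 or below (Bbc3), but 24.1% and 13.1% of all windows did so too. Among windows with over 5 input reads 0 members reached 0.58, since Bcl2l11 has 2. Both follow from how the alternatives were built. The other moved values were log2 enrichments with smaller pseudocounts: Bcl2l11 stood at 1.07 with 8 and 2.22 with 1, and Bcl2, Bad and Pmaip1 at 0.56, 0.91 and 0.89 with 1. The deposited scale factor in place of the promoter ratio raises the fold of every window and its interval alike. The fold of Mcl1 went from 0.914 to 1.01. The summed fold went from 1.44 to 1.60 for the BH3-only genes and from 1.18 to 1.31 for all members. With that factor the lower ends of these 2 intervals, 0.956 and 0.904, move above 1, the second only just. Whether they include 1 thus depends on the ratio taken as average. The anti-apoptotic and effector intervals still include 1. With scaling to the promoter totals the log2 enrichment of Mcl1 was −0.03. The adjusted p of Bcl2l11 ranged from 0.340 to 0.394 over the alternatives to the exact test. Leaving out a ChIP replicate could not be done. No paired analysis was possible because the single ST18 column carries no replicate number. Depth limits every statement: with 16 to 42 reads per promoter, the narrowest interval of a member spanned a 3.86-fold range.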
